A study of Mus musculus with 17 samples.

Results

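The keratin-positive cells described here were 1110 of 15863 filtered cell barcodes in 5 single-cell libraries of leukocytes sorted for CD45 from mouse pancreatic tumours. A barcode counted as a member when it held at least 1000 genes, at most 10% mitochondrial UMIs (unique molecular identifiers, which count RNA molecules), at least 5 UMIs of Krt8, Krt18 and Krt19 together, and no UMI of Ptprc, Csf1r, Cd3d, Cd3e, Cd3g or Cd79a. The cells were thus selected on these measured counts, so the levels of keratins and of every gene that goes with them are a description and were not tested. The study asked what PD-L1, the protein of Cd274, does on T cells, and it made mice in which Cre under the Cd4 promoter, active in T cells, is meant to remove floxed Cd274. The libraries were flfl_CD4Cre (both Cd274 alleles floxed, with Cre), flWT_CD4Cre (1 floxed and 1 wild-type allele, with Cre), flfl (both alleles floxed, no Cre), CD4Cre (Cre alone) and WT (neither), with 1 library per genotype and all mice untreated. The tumours were grown by orthotopic implantation, that is, tumour cells were placed in the pancreas of a host mouse. The labels used here give no age or sex of the mice, no name of the implanted cells, and no number of mice per library. They call the cells both CD45+ leukocytes and tumour-infiltrating T cells, whereas the cells described here had keratins and no UMI of Ptprc, the gene of CD45.

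Krt8, Krt18 and Krt19 form the intermediate filaments of simple epithelium, including the ducts of the pancreas and the carcinoma that resembles them. Carcinoma cells can lose E-cadherin, EpCAM and the tight-junction claudins and take on vimentin, fibronectin and the transcription factors Zeb, Snai, Twist and Prrx1, a change known as epithelial-mesenchymal transition. Tumour cells also lay down matrix and basement membrane, and they can display PD-L1, which engages PD-1 on T cells.

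The 5 libraries fell into 2 sets, with and without Cre, that differed in more than the labelled genotype. The 3 libraries with Cre had 31053 genes in their reference, and their leukocytes carried Xist, whereas flfl and WT had 28692 genes, and their leukocytes carried Y-linked genes. Because the sets coincide with Cre, a difference between them cannot be told apart from reference version, sex of the host or any other feature of the set. Libraries with Cre shared barcodes: 1856 were common to flfl_CD4Cre and flWT_CD4Cre, 1414 to flfl_CD4Cre and CD4Cre, and 1710 to flWT_CD4Cre and CD4Cre, against 12 for flfl and WT and at most 1 for the other pairs. Among keratin-positive cells, 340 of 389 in flfl_CD4Cre, 458 of 592 in flWT_CD4Cre and 63 of 77 in CD4Cre had a barcode that another library held too. For such members of flfl_CD4Cre, flWT_CD4Cre held a median of 2.76% as many UMIs and CD4Cre 2.08%. For such members of flWT_CD4Cre, CD4Cre held a median of 1.77%. No such median was taken over members of CD4Cre. Some barcodes were members of both libraries: 24 for flfl_CD4Cre and flWT_CD4Cre, 9 for flfl_CD4Cre and CD4Cre, and 19 for flWT_CD4Cre and CD4Cre. The barcode held at least 5 times more UMIs elsewhere for 11 cells of flfl_CD4Cre, 43 of flWT_CD4Cre and 19 of CD4Cre. Whether RNA of a cell was counted in several libraries was not tested beyond these counts. Numbers of members, counts of called genes and Cd274 in members are given with and without members whose barcode had at least 20% as many UMIs in another library. Levels of other genes, shares of single cells, sex-linked genes, correlations and chromosome values are given for all members only.

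Keratin-positive cells were common in flfl_CD4Cre and flWT_CD4Cre and rare in flfl, CD4Cre and WT. They made up 12.4% of filtered barcodes in flfl_CD4Cre (389 of 3149, exact 95% binomial interval 11.2% to 13.6%), 21.5% in flWT_CD4Cre (592 of 2751, 19.997% to 23.1%), 0.490% in flfl (14 of 2860, 0.268% to 0.820%), 1.82% in CD4Cre (77 of 4237, 1.44% to 2.27%) and 1.33% in WT (38 of 2866, 0.940% to 1.82%). The flfl_CD4Cre and flWT_CD4Cre intervals lay above all others, but the intervals cover counting error only, and a CD45 sort sets how many such cells enter a library. With 1 library per genotype there was no replicate check of any share. Without members whose barcode had at least 20% as many UMIs elsewhere, 377 cells remained in flfl_CD4Cre, 549 in flWT_CD4Cre, 14 in flfl, 58 in CD4Cre and 38 in WT. Without every member whose barcode another library held, 49 remained in flfl_CD4Cre, 134 in flWT_CD4Cre and 14 in CD4Cre. At a minimum of 500 genes in place of 1000, CD4Cre held 230 such cells.

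**Figure D1:**
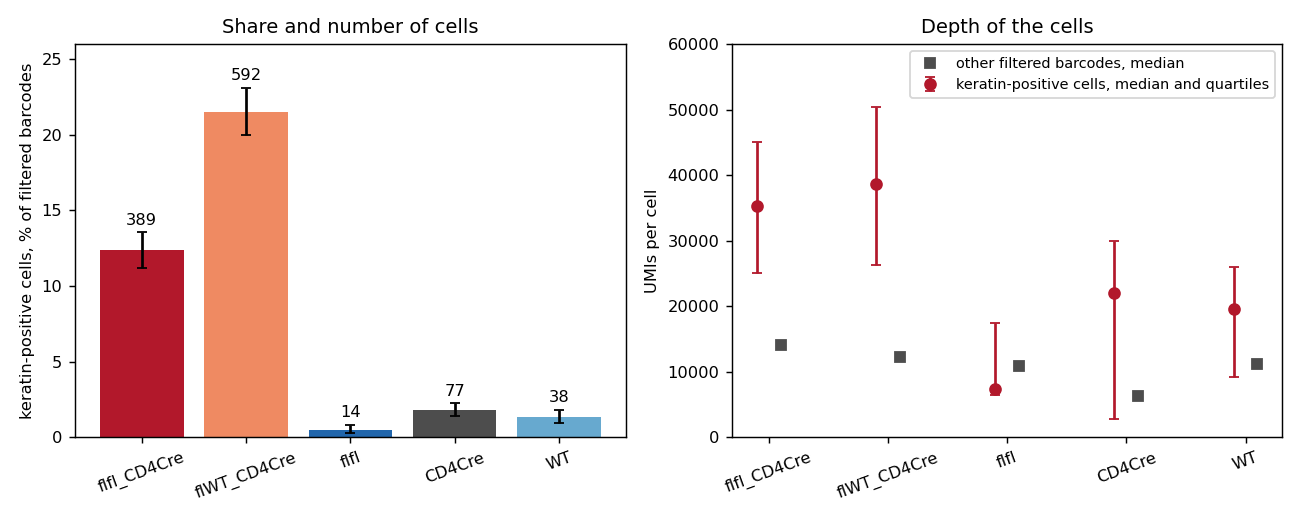
The left panel plots keratin-positive cells as a percentage of filtered barcodes per library, with exact 95% binomial intervals and the number of cells above each bar. The right panel plots UMIs per cell, as medians with quartiles for keratin-positive cells and medians for all other filtered barcodes, and shows the deeper keratin-positive cells in every library but flfl.

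The keratin-positive cells were deeper than other barcodes in every library but flfl. Their median was 35230 UMIs in flfl_CD4Cre, 38691 in flWT_CD4Cre, 7337.5 in flfl, 21983 in CD4Cre and 19589.5 in WT. Other filtered barcodes had medians of 14021 UMIs in flfl_CD4Cre, 12290 in flWT_CD4Cre, 10865.5 in flfl, 6345 in CD4Cre and 11202.5 in WT. Keratin-positive cells therefore held 22.8% of all filtered UMIs in flfl_CD4Cre, 39.1% in flWT_CD4Cre, 0.512% in flfl, 4.05% in CD4Cre and 1.91% in WT. Keratin UMIs per cell had medians of 74 in flfl_CD4Cre, 91 in flWT_CD4Cre, 55 in flfl, 38 in CD4Cre and 96.5 in WT. Over all 1110 members, 39 had 5 or 6 keratin UMIs, and 51 barcodes that met the other criteria had 3 or 4. Of these 39 members, 9 were among the 77 of CD4Cre, 9 among the 389 of flfl_CD4Cre and 21 among the 592 of flWT_CD4Cre. Just above the minimum of 1000 genes were 10 members of CD4Cre, 10 of flfl_CD4Cre and 7 of flWT_CD4Cre. CD4Cre thus had the largest part of its members near these edges. The lower quartile of UMIs per member was 2878 in CD4Cre, 25061 in flfl_CD4Cre and 26237 in flWT_CD4Cre. A single Ptprc UMI kept 133 further barcodes out. The flfl cells differed in quality as well as number, with a median of 0.156% mitochondrial UMIs, against 5.24% in flfl_CD4Cre, 4.92% in flWT_CD4Cre, 5.05% in CD4Cre and 3.64% in WT.

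Keratin RNA was also found in barcodes with leukocyte genes. Of cells with a Csf1r UMI, the receptor that marks macrophages, 24.1% in flfl_CD4Cre, 32.0% in flWT_CD4Cre, 34.1% in flfl, 13.3% in CD4Cre and 54.7% in WT had at least 1 keratin UMI. At least 5 such UMIs were found in 4.36% in flfl_CD4Cre, 6.42% in flWT_CD4Cre, 2.14% in flfl, 1.62% in CD4Cre and 4.70% in WT. The median depth of these Csf1r cells was 15610 UMIs in flfl_CD4Cre, 14642 in flWT_CD4Cre, 11619.5 in flfl, 11578 in CD4Cre and 12116 in WT. In absolute numbers, 167 barcodes in flfl_CD4Cre, 173 in flWT_CD4Cre, 81 in flfl, 78 in CD4Cre and 181 in WT had at least 5 keratin UMIs together with a leukocyte gene of the rule, and these are not members. In flfl, CD4Cre and WT they outnumbered the members. Their median depth was 41614 UMIs in flfl_CD4Cre, 42778 in flWT_CD4Cre, 38320 in flfl, 31664.5 in CD4Cre and 31205 in WT. These medians lay above those of the members in every library.

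The marker genes beyond the keratins were present in the 3 libraries with Cre. Levels are the summed UMIs of a library's keratin-positive cells as CPM, that is, scaled to the summed UMIs of those cells. Sparc, a secreted matrix glycoprotein, stood at 766 CPM in flfl_CD4Cre, 555 in flWT_CD4Cre, 75.6 in flfl, 519 in CD4Cre and 405 in WT. In WT few cells carried it: after thinning to 3000 UMIs a cell, Sparc was found in 5 of 38 WT cells, against 66.8% of cells in flfl_CD4Cre, 61.0% in flWT_CD4Cre and 64.9% in CD4Cre. Col18a1, a collagen of basement membrane, stood at 501 CPM in flfl_CD4Cre, 425 in flWT_CD4Cre, 70.2 in flfl, 600.3 in CD4Cre and 287 in WT. Lgals7, a galectin of stratified epithelium, stood at 199 CPM in flfl_CD4Cre, 123 in flWT_CD4Cre, 0 in flfl, 117 in CD4Cre and 53 in WT. Macrophages, defined as cells with Csf1r and without keratin, Cd3 or Cd79a, had at most 12.0 CPM of Sparc, 2.65 CPM of Col18a1 and 1.49 CPM of Lgals7 in any library. The 14 cells of flfl thus had no Lgals7 UMI and the lowest Sparc and Col18a1, and flfl was left out of comparisons, which needed at least 20 members a library.

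The name of tumour epithelial cells holds only in part for the libraries with Cre, because most genes that define simple epithelium were near 0 there. Epcam, the epithelial adhesion molecule, was at 1.28 CPM in flfl_CD4Cre, 0.223 in flWT_CD4Cre, 43.2 in flfl, 0 in CD4Cre and 479.7 in WT. Krt7, a keratin of ducts, was at 7.20 CPM in flfl_CD4Cre, 0.937 in flWT_CD4Cre, 362 in flfl, 6.92 in CD4Cre and 379 in WT. Cldn7, a tight-junction claudin, was at 0.0713 CPM in flfl_CD4Cre, 0 in flWT_CD4Cre, 16.2 in flfl, 0 in CD4Cre and 80.2 in WT. Cdh1, which encodes E-cadherin, was the exception, at 183 CPM in flfl_CD4Cre, 143 in flWT_CD4Cre, 91.8 in flfl, 150.4 in CD4Cre and 270.4 in WT, where macrophages held 7.70 to 29.2 CPM. Of 16 genes in the epithelial list, 2 reached 50 CPM in each of flfl_CD4Cre, flWT_CD4Cre and CD4Cre, while 4 did in flfl and 6 in WT. The summed level of the list was 317 CPM in flfl_CD4Cre, 273 in flWT_CD4Cre, 972 in flfl, 271 in CD4Cre and 2529 in WT. Krt5 of basal epithelium was at 0 in all 5 libraries.

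**Figure D2:**
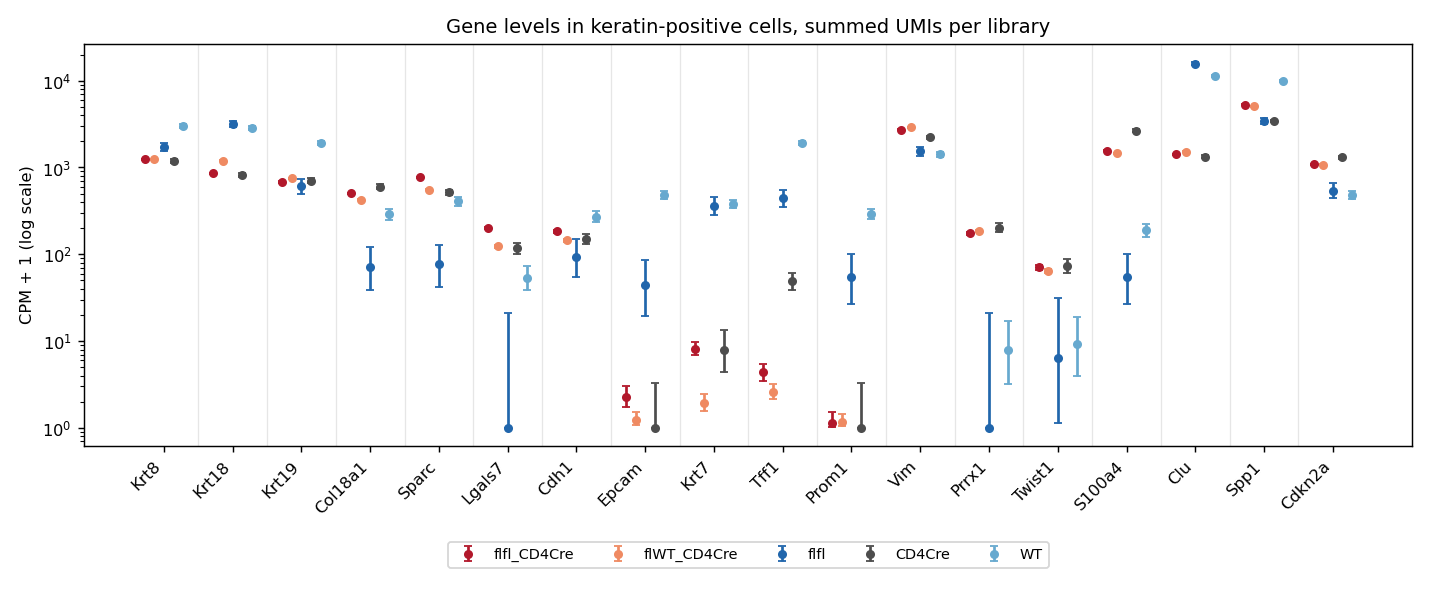
Levels of marker, epithelial, ductal, mesenchymal and other genes in keratin-positive cells, as CPM plus 1 on a log axis, with 1 point per library and exact Poisson 95% intervals that cover counting error only. The 3 libraries with Cre lie together for nearly every gene, low for Epcam, Krt7, Tff1 and Prom1 and high for Prrx1 and S100a4, while flfl and WT lie apart from them.

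Genes of the ductal list separated the library sets further. Tff1, a mucosal trefoil peptide, was at 3.35 CPM in flfl_CD4Cre, 1.61 in flWT_CD4Cre, 443 in flfl, 48.5 in CD4Cre and 1899 in WT. In CD4Cre all 77 Tff1 UMIs came from 1 cell, and in flfl 77 of 82 did. Muc1, a membrane mucin, was at 2.85 CPM in flfl_CD4Cre, 2.05 in flWT_CD4Cre, 199.8 in flfl, 1.89 in CD4Cre and 284 in WT. Agr2, a disulfide isomerase of secretory epithelium, reached 275 CPM in WT and at most 0.268 CPM in the other libraries. Transcription factors of pancreatic duct and progenitor were present in all 5. Onecut2 was at 317 CPM in flfl_CD4Cre, 265 in flWT_CD4Cre, 464 in flfl, 359.9 in CD4Cre and 780.1 in WT. Sox9 was at 263 CPM in flfl_CD4Cre, 283 in flWT_CD4Cre, 113 in flfl, 291 in CD4Cre and 89.7 in WT. Pdx1, which specifies the pancreas, lay between 16.2 and 41.5 CPM, against at most 0.212 CPM in macrophages. Ductal Cftr and Mmp7 were at 0 throughout.

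Mesenchymal genes ran the other way. Prrx1 stood at 173 CPM in flfl_CD4Cre, 184 in flWT_CD4Cre, 0 in flfl, 202 in CD4Cre and 6.80 in WT, and macrophages held at most 0.911 CPM. Twist1 stood at 69.6 CPM in flfl_CD4Cre, 62.7 in flWT_CD4Cre, 5.40 in flfl, 72.4 in CD4Cre and 8.15 in WT. S100a4, a calcium-binding protein of motile cells, stood at 1555 CPM in flfl_CD4Cre, 1457 in flWT_CD4Cre, 54.0 in flfl, 2663 in CD4Cre and 189 in WT. Vim, or vimentin, was high in all 5, at 2712 CPM in flfl_CD4Cre, 2900.4 in flWT_CD4Cre, 1539 in flfl, 2218 in CD4Cre and 1409 in WT. Of 18 mesenchymal genes, 11 reached 50 CPM in flfl_CD4Cre, 10 in flWT_CD4Cre, 6 in flfl, 10 in CD4Cre and 7 in WT. Defining fibroblast genes were low beside this: Pdgfra was at most 3.21 CPM in any library, and of 14 fibroblast genes 2 reached 50 CPM in flfl_CD4Cre, 1 in flWT_CD4Cre, 0 in flfl, 1 in CD4Cre and 1 in WT. Endothelial Tek and Emcn and islet Ins1, Sst, Iapp and Pyy were at 0 in all 5.

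Macrophage RNA within the members differed between the sets. The 9 macrophage genes summed to 155 CPM in flfl_CD4Cre, 122 in flWT_CD4Cre, 1080.0 in flfl, 164 in CD4Cre and 1426 in WT, and all 9 had a UMI in every library. Lyz2, macrophage lysozyme, was at 57.1 CPM in flfl_CD4Cre, 43 in flWT_CD4Cre, 362 in flfl, 51.0 in CD4Cre and 398 in WT. Macrophages held 8789.6 CPM of Lyz2 in flfl_CD4Cre, 8786 in flWT_CD4Cre, 13858 in flfl, 5716 in CD4Cre and 14292 in WT. The part of this RNA in differences between the sets was not tested.

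Across 4063 genes, summed profiles of keratin-positive cells correlated at r = 0.971 to 0.983 (log2 of CPM plus 1) among the 3 libraries with Cre, at 0.847 between flfl and WT, and at 0.523 to 0.598 across the sets. Macrophages over 3710 genes gave 0.961 to 0.968 among libraries with Cre, 0.971 for flfl and WT, and 0.713 to 0.767 across sets. Genes are not independent replicates, libraries of a set share a reference, and libraries with Cre share barcodes, so these values only describe likeness.

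The genes with the highest ratio of members to all other filtered cells, among 642 at 200 CPM or more in at least 2 libraries, were led by matrix genes. These ratios follow from how the cells were chosen, and the other cells include the mixed barcodes above, which lower them. Of the 25 named genes, 11 encode matrix or its partners: the collagens Col6a2, Col18a1, Col6a1, Col4a1, Col4a2 and Col6a3, the laminin chain Lamb1, the fibulin Fbln2, the procollagen enhancer Pcolce, nephronectin (Npnt), and Ltbp1, which stores latent TGF-beta. Col6a2 had the highest ratio, 8.13, and stood at 308 CPM in flfl_CD4Cre, 163 in flWT_CD4Cre, 0 in flfl, 391 in CD4Cre and 27.2 in WT. Fbln2 stood at 1081 CPM in flfl_CD4Cre, 967 in flWT_CD4Cre, 286 in flfl, 1021 in CD4Cre and 190.3 in WT. Both were thus lowest in flfl and WT.

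Others among the 25 were high in every library. Clu, the secreted chaperone clusterin, stood at 1411 CPM in flfl_CD4Cre, 1520.3 in flWT_CD4Cre, 15698 in flfl, 1326 in CD4Cre and 11350.4 in WT. Wfdc2, a secreted protease inhibitor of epithelium, stood at 440.1 CPM in flfl_CD4Cre, 475 in flWT_CD4Cre, 902 in flfl, 551 in CD4Cre and 1441 in WT. Cdkn2a, the locus of the p16 and Arf tumour suppressors and a common loss in pancreatic carcinoma, stood at 1092 CPM in flfl_CD4Cre, 1073 in flWT_CD4Cre, 540.0 in flfl, 1302 in CD4Cre and 482 in WT, and macrophages held at most 7.32 CPM. The remainder included the cadherin Cdh13, the annexin Anxa8, Onecut2, Ptprn (a protein of secretory vesicles), Gas1, Aldh1a3 (retinoic acid synthesis), Cpe (a prohormone-processing enzyme), Nrep, Nedd4 (a ubiquitin ligase) and Sox9. Among other driver genes of pancreatic cancer, Trp53 stood at 114 CPM in flfl_CD4Cre, 135 in flWT_CD4Cre, 124 in flfl, 133 in CD4Cre and 62.5 in WT. This is an RNA level and says nothing of mutation.

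To compare single cells, each was thinned to 3000 UMIs, which left 373 of 389 cells in flfl_CD4Cre, 546 of 592 in flWT_CD4Cre, 14 of 14 in flfl, 57 of 77 in CD4Cre and 38 of 38 in WT. The mesenchymal list had a median of 24 UMIs per cell in flfl_CD4Cre, 21 in flWT_CD4Cre, 7 in flfl, 26 in CD4Cre and 4 in WT. At least 15 such UMIs were found in 87.7% of cells in flfl_CD4Cre, 81.7% in flWT_CD4Cre, 7.14% in flfl, 93.0% in CD4Cre and 15.8% in WT, or 327 cells in flfl_CD4Cre, 446 in flWT_CD4Cre, 1 in flfl, 53 in CD4Cre and 6 in WT. At least 5 UMIs of the epithelial list were found in 4 cells of flfl_CD4Cre, 7 of flWT_CD4Cre, 6 of flfl, 1 of CD4Cre and 24 of WT. An Epcam UMI was found in 2 cells of flfl_CD4Cre, 0 of flWT_CD4Cre, 2 of flfl, 0 of CD4Cre and 17 of WT, and none of these had 15 mesenchymal UMIs. Taken as 3 cells of the total, the 0 in flWT_CD4Cre allows up to 0.549% of cells with an Epcam UMI at this reduced depth, and the 0 in CD4Cre up to 5.26%. These limits cover counting error only and do not limit how many cells express the gene.

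Unthinned, Epcam was found in 0.514% of members in flfl_CD4Cre, 0.338% in flWT_CD4Cre, 21.4% in flfl, 0% in CD4Cre and 52.6% in WT. In macrophages the shares were 1.87% in flfl_CD4Cre, 2.97% in flWT_CD4Cre, 8.89% in flfl, 2.24% in CD4Cre and 5.07% in WT, at median depths of 14695 UMIs in flfl_CD4Cre, 13275.5 in flWT_CD4Cre, 10550 in flfl, 11270 in CD4Cre and 10937 in WT. The shares of members in the 3 libraries with Cre were below those of macrophages, at greater depth. In flfl_CD4Cre 15 of the 18 Epcam UMIs came from 1 cell, and 4 of 5 in flWT_CD4Cre. After thinning, 1 flfl_CD4Cre cell had 6 UMIs of Epcam, 5 of Cdh1 and 20 of the epithelial list. Cdh1 was found in 34.9% of thinned cells in flfl_CD4Cre, 32.8% in flWT_CD4Cre, 7.14% in flfl, 33.3% in CD4Cre and 44.7% in WT. Unthinned, the Cdh1 shares of members were 86.1% in flfl_CD4Cre, 79.1% in flWT_CD4Cre, 28.6% in flfl, 55.8% in CD4Cre and 71.1% in WT, against 4.86% to 16.6% of macrophages over the 5 libraries. In WT, 8 cells had Cdh1 without Epcam, and 18 of 38 had at least 10 UMIs of the ductal list, so the WT members were mixed among themselves.

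**Figure D3:**
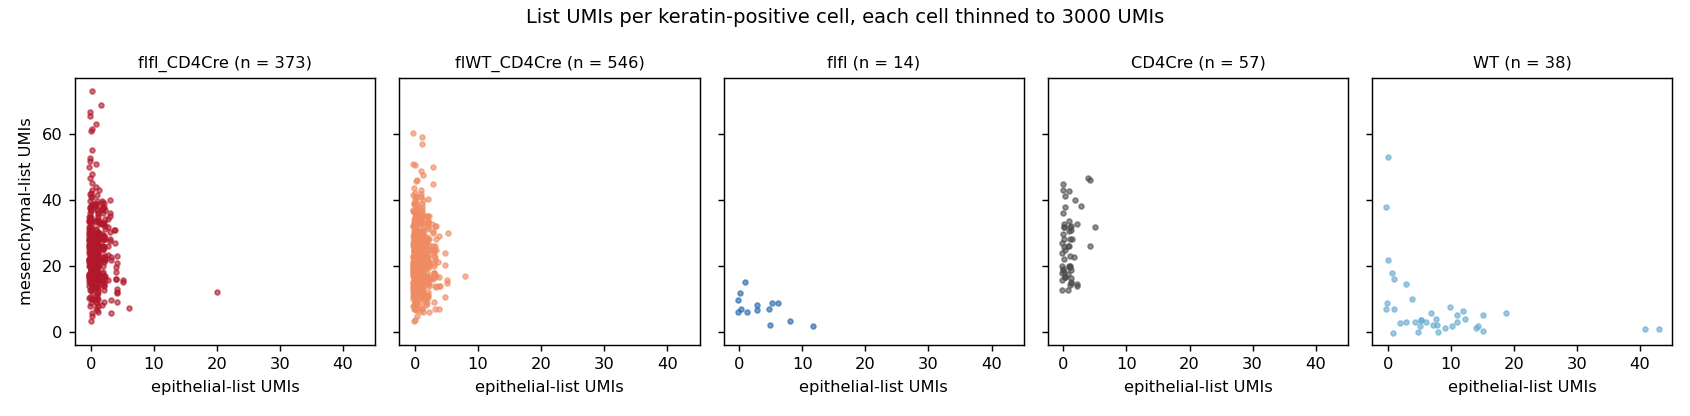
Each point is a keratin-positive cell thinned to 3000 UMIs, with UMIs of the epithelial list on the horizontal axis and of the mesenchymal list on the vertical axis, 1 panel per library and a small jitter. Cells of flfl_CD4Cre, flWT_CD4Cre and CD4Cre run up the vertical axis with few epithelial UMIs, while most WT cells spread along the horizontal axis.

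The keratin-positive cells and leukocytes of the libraries with Cre differed in sex-linked genes. Xist is transcribed from the inactive X chromosome of female cells, and Ddx3y, Eif2s3y, Kdm5d and Uty lie on the Y chromosome of males. A UMI of the 4 Y-linked genes was found in 94.6% of members in flfl_CD4Cre (368 of 389), 88.0% in flWT_CD4Cre (521 of 592), 35.7% in flfl (5 of 14), 84.4% in CD4Cre (65 of 77) and 71.1% in WT (27 of 38). Macrophages held such a UMI in 2.22% of cells in flfl_CD4Cre, 3.1% in flWT_CD4Cre, 62.2% in flfl, 1.45% in CD4Cre and 63.0% in WT. Xist was found in 94.9% of macrophages in flfl_CD4Cre, 88.6% in flWT_CD4Cre, 0.185% in flfl, 94.1% in CD4Cre and 0% in WT. Members with Xist numbered 39 in flfl_CD4Cre, 34 in flWT_CD4Cre, 0 in flfl, 8 in CD4Cre and 0 in WT. In the 3 libraries with Cre most members thus carried Y-linked RNA and most macrophages carried Xist, whereas in flfl and WT Xist was found in 1 macrophage and no member. Members with none of these genes numbered 19 in flfl_CD4Cre, 68 in flWT_CD4Cre, 9 in flfl, 12 in CD4Cre and 11 in WT, with median depths of 3985 UMIs in flfl_CD4Cre, 3457 in flWT_CD4Cre, 6928 in flfl, 2127.5 in CD4Cre and 9062 in WT, each below that of all members.

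**Figure D4:**
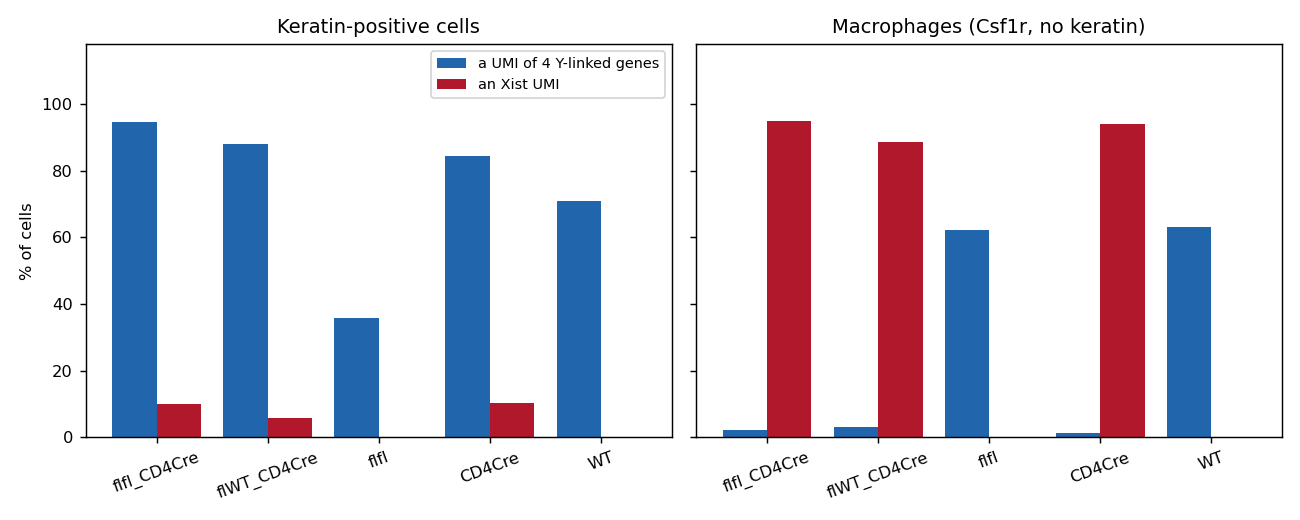
Percentage of cells with a UMI of the 4 Y-linked genes and with an Xist UMI, per library, in keratin-positive cells on the left and in macrophages on the right. In flfl_CD4Cre, flWT_CD4Cre and CD4Cre the tall bar is the Y-linked one for keratin-positive cells and Xist for macrophages.

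Exceptions were 3 members with at least 10 Xist UMIs and no Y-linked UMI, 2 in flfl_CD4Cre and 1 in flWT_CD4Cre. They held 37, 55 and 42 Xist UMIs, and 361, 239 and 381 UMIs of Dcn, the fibroblast proteoglycan decorin. Summed over all members Dcn was at 45.9 CPM in flfl_CD4Cre, 17.4 in flWT_CD4Cre, 0 in flfl, 3.15 in CD4Cre and 0 in WT, so these cells carried most of it. They met the rule through 8, 16 and 5 keratin UMIs, and results below are given without them where that matters.

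Cd274, the gene the study targets in T cells, was low in the keratin-positive cells. It stood at 8.77 CPM in flfl_CD4Cre (exact Poisson 95% interval 7.29 to 10.5, 123 UMIs), 20.1 in flWT_CD4Cre (18.3 to 22, 450 UMIs), 0 in flfl (0 to 19.9), 10.7 in CD4Cre (6.23 to 17.1, 17 UMIs) and 4.08 in WT (0.841 to 11.9, 3 UMIs). Macrophages held 156 CPM of Cd274 in flfl_CD4Cre, 253 in flWT_CD4Cre, 41.9 in flfl, 218 in CD4Cre and 32.7 in WT. The interval of flWT_CD4Cre lay above those of flfl_CD4Cre, CD4Cre and WT, while flfl_CD4Cre and CD4Cre overlapped, and with 14 cells flfl could not be placed. Without members whose barcode had at least 20% as many UMIs elsewhere the levels were 8.82 CPM in flfl_CD4Cre, 20.1 in flWT_CD4Cre and 11 in CD4Cre. Without any member whose barcode another library held they were 20.6 CPM in flfl_CD4Cre (49 cells), 28.9 in flWT_CD4Cre (134 cells) and 23.9 in CD4Cre (14 cells). After thinning, Cd274 was found in 8 of 373 cells in flfl_CD4Cre, 30 of 546 in flWT_CD4Cre, 0 of 14 in flfl, 2 of 57 in CD4Cre and 0 of 38 in WT.

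In T cells, where Cre is meant to act, Cd274 stood at 72.2 CPM in flfl_CD4Cre (26 UMIs, 47.2 to 106), 31.0 in flWT_CD4Cre (15 UMIs, 17.4 to 51.1), 14.1 in flfl (47 UMIs, 10.4 to 18.8), 51.6 in CD4Cre (30 UMIs, 34.8 to 73.7) and 7.68 in WT (11 UMIs, 3.83 to 13.7). The flfl_CD4Cre level was not below that of CD4Cre. The labels do not say which exons are floxed or which end of the transcript was counted, so these UMIs do not check the genotypes, and library names here follow the labels.

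Among other genes by which tumour cells meet immune cells, Cd47, the signal that restrains phagocytosis, stood at 308 CPM in flfl_CD4Cre, 356 in flWT_CD4Cre, 184 in flfl, 259 in CD4Cre and 227 in WT, near the 215 to 364 CPM of macrophages. H2-K1, an MHC class I heavy chain, stood at 1511 CPM in flfl_CD4Cre, 1747 in flWT_CD4Cre, 194 in flfl, 1433 in CD4Cre and 179 in WT, and in macrophages at 2078 CPM in flfl_CD4Cre, 2236 in flWT_CD4Cre, 1043 in flfl, 1915 in CD4Cre and 917 in WT. B2m, its light chain, stood at 2834 CPM in flfl_CD4Cre, 2782 in flWT_CD4Cre, 751 in flfl, 2762 in CD4Cre and 1502 in WT. Il33, an alarmin cytokine kept in the nucleus, stood at 652 CPM in flfl_CD4Cre, 496 in flWT_CD4Cre, 162 in flfl, 395 in CD4Cre and 59.8 in WT, against at most 3.61 CPM in macrophages. Spp1, the secreted osteopontin, stood at 5279 CPM in flfl_CD4Cre, 5045 in flWT_CD4Cre, 3429 in flfl, 3426 in CD4Cre and 9813 in WT.

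The comparison of flfl_CD4Cre with CD4Cre addresses keratin-positive cells in mice labelled with and without floxed Cd274 alleles, both with Cre meant to act in T cells. Few genes differed. A gene was called at 50 CPM or more in the higher library, a difference of at least 1 log2 of CPM, and Poisson intervals that did not overlap. There were 389 cells in flfl_CD4Cre and 77 in CD4Cre, and no test was possible with 1 library each. Of 3521 genes at 50 CPM, 15 were called higher (0.426%) and 10 lower (0.284%), and the median over all tested genes was 0.02 log2. Without members whose barcode had at least 20% as many UMIs elsewhere, 18 were called higher and 9 lower. With at most 5% mitochondrial UMIs, which left 180 cells in flfl_CD4Cre and 37 in CD4Cre, 60 were called higher and 58 lower.

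The genes called higher had varied roles. Ero1l, the endoplasmic reticulum oxidase of disulfide bonds, stood at 567 CPM in flfl_CD4Cre and 256 in CD4Cre, a difference of 1.15 log2. P4ha2, a collagen prolyl hydroxylase, stood at 91.2 CPM in flfl_CD4Cre and 44 in CD4Cre (1.05 log2). Car9, a carbonic anhydrase induced by low oxygen, stood at 76.0 CPM in flfl_CD4Cre and 18.2 in CD4Cre (2.06 log2), but at 81.5 in WT, so it falls outside the naming rule and was chosen after its value was seen. Of 18 genes in the glycolysis and hypoxia list, all tested, Car9 alone was called, and the median of the list was 0.50 log2. Ackr3, a scavenger receptor of chemokines, stood at 94.9 CPM in flfl_CD4Cre and 34.0 in CD4Cre (1.48 log2). Against the same CD4Cre cells, Ackr3 was called higher in flWT_CD4Cre too, at 90.5 CPM (1.41 log2). Lbp, the lipopolysaccharide-binding protein, stood at 329 CPM in flfl_CD4Cre and 152 in CD4Cre (1.12 log2). Mgp, a matrix inhibitor of calcification, stood at 214 CPM in flfl_CD4Cre and 56.6 in CD4Cre (1.92 log2). Mgp was likewise called higher in flWT_CD4Cre against CD4Cre, at 149 CPM (1.39 log2). Atp8b2, a phospholipid flippase, was higher by 1.06 log2, at 70.9 CPM in flfl_CD4Cre and 34.0 in CD4Cre. The 7 genes just given kept their call without the cell that held most of their UMIs in each library, and without the Xist-carrying members. The first step takes 1 of 77 cells from CD4Cre but 1 of 389 from flfl_CD4Cre. The differences of these genes rose there (Mgp to 2.54 log2), so that step is no check of them. Other settings ended some of these calls. With at most 5% mitochondrial UMIs Mgp stood at 0.90 log2, Lbp at 0.93 log2 and Atp8b2 at 0.85 log2. With at least 500 genes Ero1l stood at 0.98 log2 and P4ha2 at 0.83 log2. Lbp stood at 0.88 log2 with at least 10 keratin UMIs, and P4ha2 at 0.93 log2 when members could hold 1 Ptprc UMI. After thinning, Ackr3 stood at 0.74 log2, Ero1l at 0.93 log2 and P4ha2 at 0.59 log2.

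The calls of Cxcl13 and Saa3 rested on a single cell, though Saa3 was also found beyond it. Cxcl13, a B-cell chemokine, had 875 UMIs in flfl_CD4Cre, 62.4 CPM, and 0 in CD4Cre, but 868 of them came from 1 of the Xist-carrying cells. Saa3, an acute-phase apolipoprotein, had 59.9 CPM in flfl_CD4Cre and 3.15 in CD4Cre, and the same cell gave 589 of its 840 UMIs. A Saa3 UMI was found in 140 members of flfl_CD4Cre and 4 of CD4Cre. Without the top cell Saa3 stayed at 3.24 log2, with 17.9 CPM in flfl_CD4Cre and 1.89 in CD4Cre, under the 50 CPM minimum. Without the Xist-carrying cells it stood at 2.10 log2 and was not called. Col1a1, of fibrillar collagen, had 61.4 CPM in flfl_CD4Cre and 20.1 in CD4Cre (1.61 log2), and Col3a1 had 276 CPM in flfl_CD4Cre and 135 in CD4Cre (1.04 log2). Without the Xist-carrying cells Col1a1 stayed at 1.21 log2 but fell under the 50 CPM minimum, and Col3a1 stood at 0.80 log2. Col1a1 was at 0.41 log2 when members could hold 1 Ptprc UMI. Cyr61, a matricellular signalling protein, had 69.2 CPM in flfl_CD4Cre and 22.7 in CD4Cre (1.61 log2). It stood at 2.13 log2 without the top cell, but at 0.02 log2 with at most 5% mitochondrial UMIs and 0.69 log2 when members could hold 1 Ptprc UMI, where it was not called. Of the 15 genes called higher, 11 stayed called without the top cell, without shared barcodes and without the Xist-carrying cells alike.

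The 10 genes called lower gave none that the naming rule takes, since each was a histone or antibody gene or lay within the range of the other libraries, and those given here were chosen after their values were seen. Cxcl10, an interferon-induced chemokine, stood at 18.7 CPM in flfl_CD4Cre and 123 in CD4Cre, where 1 cell gave 182 of 196 UMIs. Without the top cell it stood at 12.9 CPM in flfl_CD4Cre and 8.81 in CD4Cre. Psmb8, an immunoproteasome subunit, stood at 15.8 CPM in flfl_CD4Cre and 77.4 in CD4Cre, or 12.8 CPM in flfl_CD4Cre and 13.8 in CD4Cre without the top cell. Fst, the activin antagonist follistatin, stood at 35.3 CPM in flfl_CD4Cre and 96.3 in CD4Cre, and stayed called without the top cell, as did Slfn2, Igkc and Igha, so that 4 of 10 did. Igkc, the antibody light chain of B cells, stood at 29.2 CPM in flfl_CD4Cre and 116 in CD4Cre. Macrophages gave 49.7 CPM of Igkc in flfl_CD4Cre and 156 in CD4Cre, and B cells made up 4.99% of filtered barcodes in flfl_CD4Cre and 46.8% in CD4Cre. The part of B-cell RNA in the Igkc difference was not tested.

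**Figure D5:**
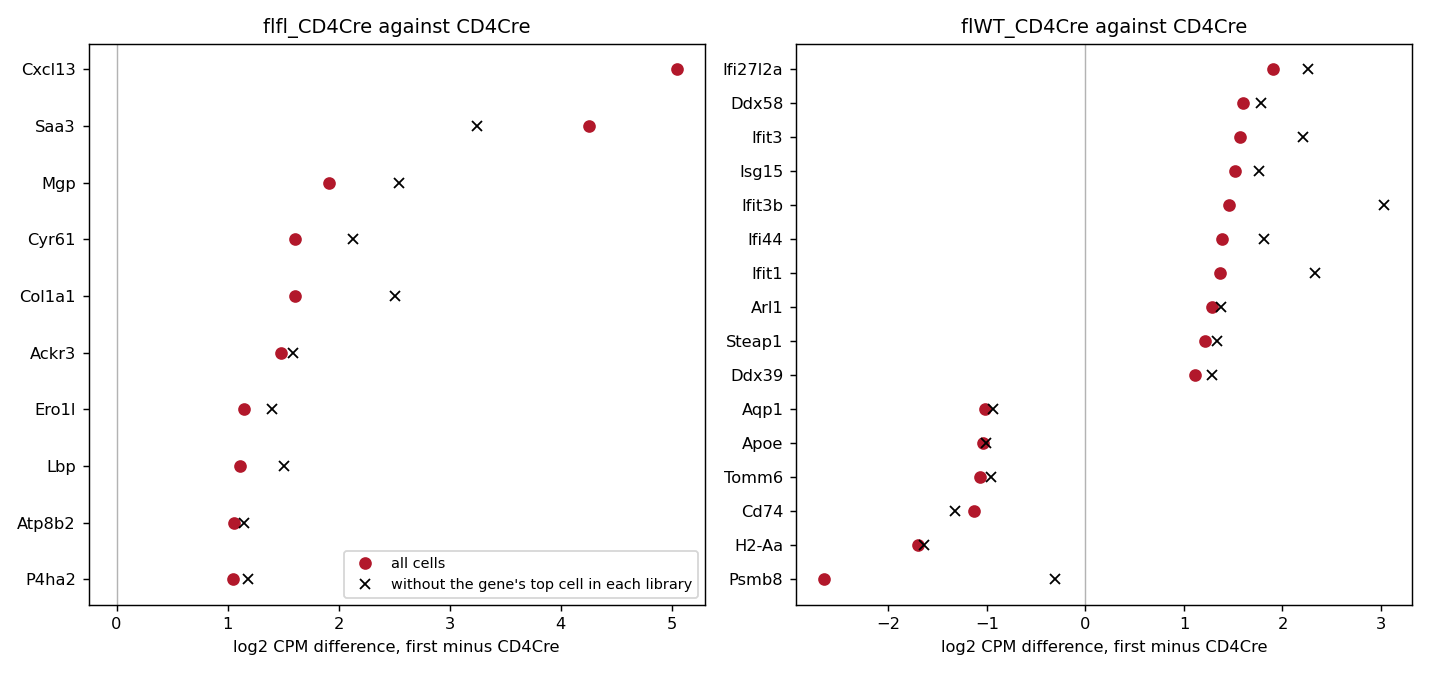
Log2 differences of CPM for the named genes, with flfl_CD4Cre minus CD4Cre on the left and flWT_CD4Cre minus CD4Cre on the right. Circles use all keratin-positive cells, and crosses leave out the cell with most UMIs of the gene in each library. Cxcl13 has no cross because both libraries are then at or under the floor of 3 counts.

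The comparison of flWT_CD4Cre with CD4Cre sets 592 cells with a single floxed allele in the host against the same 77 cells of CD4Cre, so both comparisons share that library. Part of the type I interferon list was called higher in flWT_CD4Cre. Isg15, a ubiquitin-like modifier, stood at 254 CPM in flWT_CD4Cre and 88.7 in CD4Cre (1.52 log2). Ifit3, an antiviral RNA-binding protein with the near-identical copy Ifit3b, stood at 181 CPM in flWT_CD4Cre and 61.0 in CD4Cre (1.57 log2). Ifit1 stood at 128 CPM in flWT_CD4Cre and 49.7 in CD4Cre (1.37 log2), and Ddx58, the RNA sensor RIG-I, stood at 59.3 CPM in flWT_CD4Cre and 19.5 in CD4Cre (1.60 log2). Ifi27l2a (1.91 log2), Ifit3b (1.45 log2), Ifi44 (1.38 log2) and Xaf1 (1.06 log2) were also called higher. Of these, Ifi27l2a was called higher in flfl_CD4Cre against CD4Cre too (1.12 log2). In flWT_CD4Cre against CD4Cre, Ifi27l2a stood at 0.65 log2 and was not called when members could hold 1 Ptprc UMI. Ifi44 stood at 0.23 log2 there after thinning. Of 14 genes in the type I interferon list, 8 were tested, 4 were called higher and 0 lower, with a median of 1.03 log2, against 0.01 log2 over all 3528 genes tested. Of 15 genes in the interferon-gamma list, 10 were tested and 0 were called, with a median of 0.21 log2. In all, 25 genes were called higher (0.709%) and 12 lower (0.34%), or 32 and 11 without members whose barcode had at least 20% as many UMIs elsewhere. With at most 5% mitochondrial UMIs, 61 were called higher and 63 lower.

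The same genes stood high in macrophages of flWT_CD4Cre. Isg15 was at 571 CPM in macrophages of flWT_CD4Cre and 251 in those of CD4Cre, Ifit3 at 169.6 CPM in flWT_CD4Cre and 45.3 in CD4Cre, and Ifit1 at 145 CPM in flWT_CD4Cre and 55.7 in CD4Cre. The macrophage list summed to 122 CPM in flWT_CD4Cre members and 164 CPM in CD4Cre members, and it does not cover other leukocytes. The part of leukocyte RNA in the interferon-gene levels was not tested. In single cells thinned to 3000 UMIs, the type I interferon list had a median of 5 UMIs in flfl_CD4Cre, 7.5 in flWT_CD4Cre, 0 in flfl, 5 in CD4Cre and 0 in WT. At least 20 such UMIs were found in 4.83% of cells in flfl_CD4Cre (18 of 373, 2.88% to 7.52%), 14.3% in flWT_CD4Cre (78 of 546, 11.5% to 17.5%), 0 of 14 in flfl, 5.26% in CD4Cre (3 of 57, 1.10% to 14.6%) and 2.63% in WT (1 of 38). The intervals of flWT_CD4Cre and CD4Cre overlap.

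Other genes called higher in flWT_CD4Cre included Steap1, a membrane protein of epithelium (100.4 CPM in flWT_CD4Cre and 43.4 in CD4Cre, 1.21 log2). They also included the Golgi GTPase Arl1 (106 CPM in flWT_CD4Cre and 43.4 in CD4Cre) and the RNA helicase Ddx39 (87.3 CPM in flWT_CD4Cre and 40.3 in CD4Cre). Of 20 genes in the G2/M list 10 were tested and 1 was called, Cenpf of the kinetochore, at 193 CPM in flWT_CD4Cre and 89.4 in CD4Cre, with a list median of 0.60 log2. With at least 500 genes Steap1 stood at 0.98 log2 and Ddx39 at 0.89 log2, where neither was called, and after thinning Arl1 stood at 0.72 log2 and Steap1 at 0.57 log2. Thinned cells with at least 10 UMIs of the S and G2/M lists made up 12.9% in flfl_CD4Cre, 19.6% in flWT_CD4Cre, 14.3% in flfl, 12.3% in CD4Cre and 7.89% in WT. The exact binomial intervals of flWT_CD4Cre (16.3% to 23.2%) and CD4Cre (5.08% to 23.7%) overlap. All 25 genes called higher stayed called without the top cell, without shared barcodes and without the Xist-carrying cell. Leaving out the top cell takes 1 of 77 cells from CD4Cre but 1 of 592 from flWT_CD4Cre, and the log2 differences then rose. Ifit3b went from 1.45 to 3.03 log2 and Ifit1 from 1.37 to 2.33 log2. Keeping a call of higher at this step is therefore no check of it.

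Both tested genes of the 7 in the MHC class II list were called lower in flWT_CD4Cre, where 0.34% of all genes tested were. H2-Aa, an MHC class II chain, stood at 16.3 CPM in flWT_CD4Cre and 52.9 in CD4Cre (-1.69 log2). Cd74, the class II invariant chain, stood at 44.6 CPM in flWT_CD4Cre and 97.5 in CD4Cre (-1.13 log2). Apoe, the lipid carrier abundant in macrophages, stood at 55.6 CPM in flWT_CD4Cre and 114 in CD4Cre (-1.04 log2). Igkc stood at 1.83 CPM in flWT_CD4Cre and 116 in CD4Cre, while macrophages held 5.05 CPM in flWT_CD4Cre and 156 in CD4Cre, and B cells made up 3.2% of filtered barcodes in flWT_CD4Cre and 46.8% in CD4Cre. The part of leukocyte RNA in these levels was not tested. Psmb8 stood at 12.3 CPM in flWT_CD4Cre and 77.4 in CD4Cre, but 101 of its 123 UMIs in CD4Cre came from 1 cell. Aqp1, a water channel, and Tomm6, of the mitochondrial import channel, were lower by just over 1 log2 (-1.02 and -1.07) and lost the call without the top cell. H2-Aa also lost it (-1.64 log2, with CD4Cre then at 47.2 CPM), and H2-Aa, Apoe and Aqp1 lost it without members whose barcode had at least 20% as many UMIs elsewhere (-1.61, -0.99 and -0.96 log2). Of 12 genes called lower, 6 stayed called without the top cell.

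Of 12 MHC class I genes 10 were tested in each comparison, and Psmb8 alone was called, lower in both, on the single cell of CD4Cre named above. Over all genes tested the shares called were 0.426% higher and 0.284% lower for flfl_CD4Cre, and 0.709% higher and 0.34% lower for flWT_CD4Cre, so that 0 calls in a list of this size are read as no result about the list. Of 10 driver genes 7 were tested in each comparison and 0 were called, with medians of 0.03 log2 for flfl_CD4Cre against CD4Cre and 0.02 log2 for flWT_CD4Cre against CD4Cre. The basement membrane list had 9 of 14 genes tested and 0 called in each comparison, with medians of 0.16 log2 for flfl_CD4Cre against CD4Cre and -0.24 log2 for flWT_CD4Cre against CD4Cre. A comparison of flfl with WT was not made, because flfl held 14 cells.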

How the data were processed

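For each of the 5 single-cell libraries the authors deposited raw UMI counts for every gene and barcode, made with Cell Ranger on mm10 per the submitters' processing notes, in version 3.1.0 per the file headers of the 3 libraries with Cre. The bulk libraries of the series were not used here. Groups follow the genotype labels. Where the names of deposited files point to another genotype (flWT_CD4Cre and WT), the labelled genotype was kept.

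Members, gene lists and the naming rule were chosen with earlier results of these data known. Macrophages had Csf1r and no keratin, Cd3 or Cd79a UMI. T cells had at least 2 Cd3 UMIs and B cells at least 2 Cd79a UMIs, with no UMI of the other classes. Counts were summed per library and class as CPM, with exact Poisson 95% intervals, and shares have exact Clopper-Pearson 95% intervals. Both cover counting error only, and 1 library per genotype allowed no test. flfl_CD4Cre and flWT_CD4Cre were each compared with CD4Cre. A comparison of flfl with WT needed 20 members in each library and was not made. Cells of fewer than 3000 UMIs were left out of thinned values. A level of 0 is set against a floor of 3 counts. No doublet call was applied. Scrublet in scanpy 1.11.5 was an alternative. The calling step was tested on simulated Poisson sums. Those hold no spread between cells, so that test does not cover calls that rest on a single cell. Summed UMIs of members were 14029518 in flfl_CD4Cre, 22411265 in flWT_CD4Cre, 185186 in flfl, 1589189 in CD4Cre and 735833 in WT.

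Named genes were the markers, the 25 genes with the highest ratio of members to other cells, the 10 largest calls each way whose level lay outside those of the other libraries with at least 20 members (gene models, receptor segments and histones left out), and up to 6 genes per list. Some genes that this rule takes are not reported here. Analyses used Python 3.11.15, numpy 2.4.6 and scipy 1.17.1.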

Additional observations from a re-analysis of the deposited data

How the results depend on the processing

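No paired analysis was possible because each genotype had 1 library and no result came from a test. Numbers of keratin-positive cells stayed within 1.5 times under a keratin minimum of 3 or 10, at most 20% mitochondrial UMIs, 1 Ptprc UMI, and removal of the highest Scrublet scores. They moved with at least 500 genes (230 in CD4Cre), with at least 2000 genes (9 in flfl, 50 in CD4Cre), with at most 5% mitochondrial UMIs (180 in flfl_CD4Cre, 302 in flWT_CD4Cre, 37 in CD4Cre), and without every member whose barcode another library held (49 in flfl_CD4Cre, 134 in flWT_CD4Cre, 14 in CD4Cre), which left CD4Cre too small to compare. The last step, leaving out shared barcodes, each gene's top cell or Xist-carrying cells were added after seeing the data.

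Counts of called genes are given as higher and lower for flfl_CD4Cre against CD4Cre, then for flWT_CD4Cre against CD4Cre. They were 60 and 58, then 61 and 63, with at most 5% mitochondrial UMIs. They were 51 and 42, then 68 and 55, at 20 CPM, and 5 and 3, then 12 and 5, at 100 CPM. At 0.58 log2 they were 110 and 60, then 171 and 94. In thinned cells they were 51 and 37, then 65 and 64. Without the 50 most abundant genes, 20 were lower in flfl_CD4Cre and 22 in flWT_CD4Cre. With at least 500 genes, 16 were higher in flWT_CD4Cre. Without the top cell, 4 were lower in flfl_CD4Cre, and 64 were higher and 6 lower in flWT_CD4Cre; this takes 1 of 77 cells from CD4Cre but 1 of 389 or 592 from the others. Looser thresholds and fewer cells change the counts by construction, and other causes were not tested.

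Cd274 moved to 10.8 CPM in flfl_CD4Cre with at most 5% mitochondrial UMIs, to 20.6 CPM in flfl_CD4Cre, 28.9 in flWT_CD4Cre and 23.9 in CD4Cre without all shared barcodes, and to 7.15 CPM in flfl_CD4Cre and 0 in WT after thinning. Of values for the named genes under the alternatives, 368 stayed called and 71 did not, and none changed sign. The 368 include 26 values at 0.58 log2 and 26 at 20 CPM, where the looser threshold cannot end a call. Called genes outside the naming rule did change sign. Without the top cell, in flfl_CD4Cre against CD4Cre, Cxcl10 went from -2.72 to 0.55 log2 and Prl2c3 from -3.25 to 1.78 log2. Of the 26 named differences, 16 lost the call after thinning, 16 at 100 CPM, 7 with at most 5% mitochondrial UMIs, 7 with 1 Ptprc UMI allowed, and 6 with at least 500 genes. Cxcl13 gave no value where both libraries were at or under the floor. Depth limits flfl most, with 14 cells and 185186 UMIs.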

Other observations

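Keratin-free barcodes without any leukocyte gene of the rule numbered 46 in flfl_CD4Cre, 101 in flWT_CD4Cre, 31 in flfl, 55 in CD4Cre and 8 in WT. Cd274 in them stood at 299 CPM in flfl_CD4Cre (241 to 367), 435 in flWT_CD4Cre (385 to 489), 94.5 in flfl (61.1 to 139), 300.4 in CD4Cre (244 to 365) and 25.2 in WT (3.05 to 90.9), above the keratin-positive cells of each library except WT, where the intervals overlap. An Xist UMI was found in 54.3% of them in flfl_CD4Cre, 31.7% in flWT_CD4Cre and 61.8% in CD4Cre, and a Y-linked UMI in 1 cell of flfl_CD4Cre, 2 of flWT_CD4Cre and 0 of CD4Cre.

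Summed by chromosome and set against macrophages of the same library, keratin-positive cells had more RNA from chromosome 3 in every library, by 0.78 log2 in flfl_CD4Cre, 0.77 in flWT_CD4Cre, 0.66 in flfl, 0.80 in CD4Cre and 0.87 in WT. The median over genes with at least 20 CPM in both, relative to the median of all such genes, was 0.57 log2 in flfl_CD4Cre, 0.56 in flWT_CD4Cre, 0.27 in flfl, 0.56 in CD4Cre and 0.23 in WT. Chromosome 4 was lower by the same measure, at -0.38 log2 in flfl_CD4Cre, -0.41 in flWT_CD4Cre, -0.38 in flfl, -0.41 in CD4Cre and -0.48 in WT. Chromosome 8 stood at 0.45 log2 in flfl_CD4Cre, 0.50 in flWT_CD4Cre, 0.11 in flfl, 0.43 in CD4Cre and 0.15 in WT. The X chromosome stood at -0.35 log2 in flfl_CD4Cre, -0.39 in flWT_CD4Cre, 0.18 in flfl, -0.37 in CD4Cre and 0.00 in WT, and chromosome 6 at 0.13 log2 in flfl_CD4Cre, 0.13 in flWT_CD4Cre, 0.32 in flfl, 0.14 in CD4Cre and 0.40 in WT. Genes that differ between cell types are spread unevenly over chromosomes, and these values do not measure DNA copies.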
